A study of Mus musculus with 6 samples.

Results

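The translation initiation and elongation factors were taken as the rows of the deposited expression table whose gene symbol starts with Eif1 to Eif6 or with Eef1 or Eef2, leaving out the Eif2ak kinases. This gave 59 genes of the 12560 in the table, 48 Eif genes (initiation factors and their regulators) and 11 Eef genes (elongation factors and the enzymes that act on them). The rule reads gene names and no measured value, and it was set with earlier results of these data known. The libraries were made from total RNA of samples labelled mouse chondrocytes, the cells of cartilage, with 3 libraries from mice labelled control and 3 from Eldr cKO mice, where cKO is the usual short form of conditional knockout and Eldr is a long noncoding RNA. The sources used here do not give the age, strain or sex of the mice, the Cre driver, any allele or agent shared by both groups, or whether each library is a separate mouse. P-values therefore measure a spread between libraries that may be technical. Values are FPKM, fragment counts divided by gene length in kilobases and by library size. For most rows that length was the union of all annotated exons, which can exceed the coding transcript. Levels of different genes are set side by side per that length.

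Initiation factors bring the small ribosomal subunit, the initiator tRNA and the capped mRNA together. The eIF4 group binds the cap and opens the leader of the mRNA, eIF2 delivers the initiator tRNA, eIF3 holds the complex on the small subunit, and eIF5 and eIF5B end the start step. Elongation then runs on eEF1A, which brings each aminoacyl-tRNA to the ribosome as a GTP complex, on the eEF1B subunits, which reload it with GTP, and on eEF2, which moves the ribosome by a codon. In mice, Eef1a1 is used by most cells, while Eef1a2 takes its place in mature muscle, heart and neurons.

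The 2 eEF1A genes and the 2 cytoplasmic eIF4A genes encode closely related proteins, and the isoform results turn on telling their transcripts apart. The stretches shown are, for each pair, the 60 matching bases within 1 exon that differ most, and so differ more than the coding sequences do as a whole. The stretches are from GRCm38, 5′ to 3′ on the coding strand, and capitals mark the bases that differ within a pair, 22 in the eEF1A pair and 23 in the eIF4A pair. The eEF1A stretches lie in coding exon sequence at chr9:78479694-78479753 for Eef1a1 (minus strand, exon 5) and chr2:181150989-181151048 for Eef1a2 (minus strand, exon 5). The eIF4A stretches lie at chr11:69670144-69670203 for Eif4a1 (minus strand, exon 4) and chr16:23109189-23109248 for Eif4a2 (plus strand, exon 4).
Eef1a1: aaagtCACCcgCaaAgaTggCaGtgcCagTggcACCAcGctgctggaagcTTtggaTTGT
Eef1a2: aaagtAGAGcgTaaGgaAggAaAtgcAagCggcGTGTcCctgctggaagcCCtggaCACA
Eif4a1: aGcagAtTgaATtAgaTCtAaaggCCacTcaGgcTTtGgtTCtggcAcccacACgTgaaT
Eif4a2: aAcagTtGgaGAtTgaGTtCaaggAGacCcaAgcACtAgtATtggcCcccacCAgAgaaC

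Over the whole coding sequence, Eef1a1 (1386 bases) and Eef1a2 (1389 bases) were 80.1% identical, with no identical run longer than 23 bases. Eif4a1 and Eif4a2 were 78.0% identical, with no identical run longer than 20 bases. Neither pair shared a window of 50 bases. Copies elsewhere in the genome were a larger overlap for some members. Of the 50-base windows in its coding transcript, Eef1a1 shared 60.6% with 21 other annotated genes, Eef1g 64.3%, Eif4a1 65.3%, Eif3j1 54.8% and Eif3j2 91.8%. These were the 5 members that shared more than they kept to themselves, and how the authors assigned reads that match several genes is not stated in the sources used here, so their levels are uncertain. Eef1a2 shared none, as did 21 of the other members.

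The libraries were shallow, and this sets how far each value can be read. Depth, estimated from the steps in FPKM, was 461267, 78990 and 129499 fragments in control 1 to 3 and 190905, 52179 and 55801 in Eldr cKO 1 to 3. For a transcript of 2 kb, 1 fragment equalled 1.08 FPKM in control 1 but 9.58 FPKM in Eldr cKO 2. Genes of the mitochondrial genome took 68.0%, 70.0% and 41.1% of the summed FPKM in control 1 to 3. In Eldr cKO 1 to 3 they took 43.6%, 33.9% and 33.8%. Predicted genes named Gm took 3.26%, 13.2% and 14.0% in controls and 4.21%, 49.4% and 46.5% in Eldr cKO. The targeted gene Eldr had no row, and so could not serve to check the genotype labels. The cartilage genes Col2a1 and Acan were in the list of chondrocyte markers but had no row among the values used here, and so were not analysed. The 7 of 14 chondrocyte markers with a row summed to 0.616 to 24.4 FPKM per library, while 13 of 13 heart muscle markers had a row and summed to 1017 to 9498 FPKM. On these markers the data go against the label, with heart muscle genes far above the chondrocyte genes measured, so the samples are called by their genotype alone below. In such bulk samples, fewer cells of a type and less RNA per cell cannot be told apart.

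Translation factor transcripts were detected more often than the average row of the table. In control 1, 2 and 3, 58, 39 and 49 of the 59 members were above 0, and in Eldr cKO 1 to 3, 53, 38 and 42. As a share of the members this was 98.3%, 66.1% and 83.1% in controls and 89.8%, 64.4% and 71.2% in Eldr cKO. Over all rows it was 79.1%, 37.6% and 62.4% in controls and 73.6%, 36.6% and 39.1% in Eldr cKO, so the members lay above the table in each library and the libraries had the same order on both shares. In all 6 libraries, 26 members were above 0, of which 20 were initiation and 6 elongation genes. A further 13 were above 0 in 5 libraries, 6 in 4, 7 in 3, 6 in 2 and 1 in 1.

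The number of fragments behind these values was small. Counted as FPKM times exon length times depth, all 59 members together held 2488, 526 and 1410 fragment equivalents in control 1 to 3 and 1589, 361 and 410 in Eldr cKO 1 to 3. The median member stood on 19.1, 1.35 and 8.62 in controls and on 9.22, 1.00 and 2.03 among Eldr cKO libraries. For a typical factor, a difference among the 3 shallowest libraries therefore rests on a few fragments. Of 59 members, 27 reached 20 fragment equivalents in control 1, but 4 did in control 2 and in Eldr cKO 3 and 3 in Eldr cKO 2. A value of 0 in a shallow library is given as listed at 0, not as absence.

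**Figure D1:**
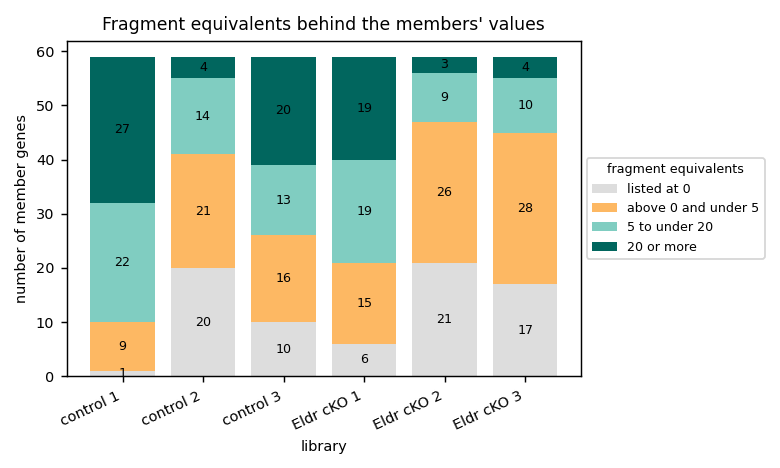
Number of the 59 translation factor genes (vertical axis) in each library (horizontal axis), split by the fragment equivalents behind the value: listed at 0, above 0 and under 5, 5 to under 20, and 20 or more. In Eldr cKO 2 and Eldr cKO 3, 47 and 45 members stood on under 5 fragment equivalents or were listed at 0, against 10 in control 1.

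The members ranged from the most abundant housekeeping transcripts to genes at the limit of detection. Eef1a1 had the highest level in each library, followed by Eef2 in 3 of them. Among 19 members with a mean of at least 20 FPKM, 5 were elongation genes (Eef1a1, Eef2, Eef1g, Eef1a2 and Eef1b2). At the low end were the eIF2B subunits and the enzymes that modify elongation factors, of which none was above 0 in all 6 libraries. The members' summed FPKM was 1440, 1554 and 2766 in control 1 to 3 and 2293, 1655 and 1760 in Eldr cKO 1 to 3. As a share of the FPKM outside mitochondrial genome and Gm genes this was 1.16%, 2.48% and 2.24% in controls and 1.56%, 2.46% and 2.17% in Eldr cKO, so the groups overlapped on both scales.

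**Figure D2:**
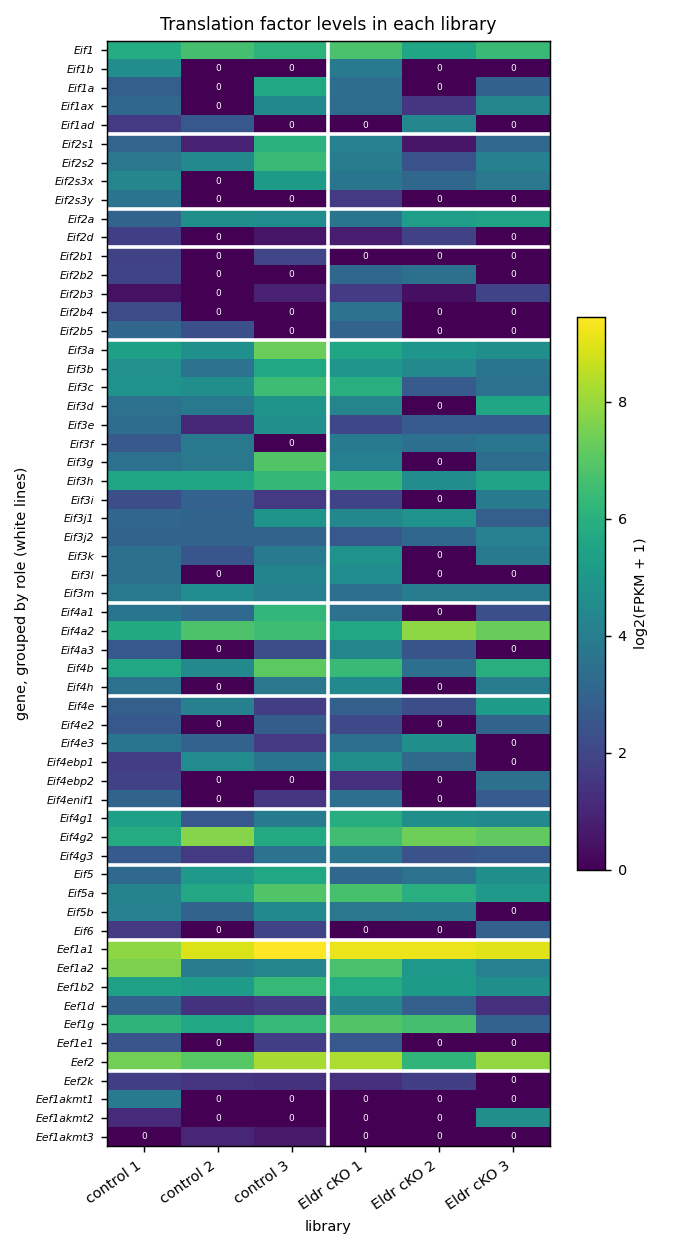
Level of each of the 59 translation factor genes (rows, grouped by role between white lines) in each library (columns, control left of the white line), as log2(FPKM + 1) by colour, with 0 printed where a gene is listed at 0. Eef1a1 is the brightest row throughout, and most zeros fall in control 2, Eldr cKO 2 and Eldr cKO 3.

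No translation factor passed the test between genotypes. The test was limma on log2(FPKM + 1) over the 9007 genes whose mean reached 1 FPKM, with Benjamini-Hochberg adjustment over all of them and a threshold of 0.05. It called 0 genes higher and 0 lower in Eldr cKO, which is 0.00% in each direction, and 0 of the 57 tested members. Unadjusted p was under 0.05 for 0 of 57 members, against 1.50% of all tested genes (135 of 9007). The control and Eldr cKO values did not overlap for 0 of 59 members, against 3.94% of all tested genes (355 of 9007). Of the 57 members, 26 had a log2 fold change above 0 and 31 below 0, with a median of -0.11. Over all tested genes 4099 were above 0 and 4908 below 0, with a median of -0.13, so the members' split was that of the table. An adjusted p above 0.05 does not show equal levels, since the 95% interval of a member spanned several log2 units. Even for Eef1a1, the member with the smallest SE, it ran from -1.34 to 2.11.

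**Figure D3:**
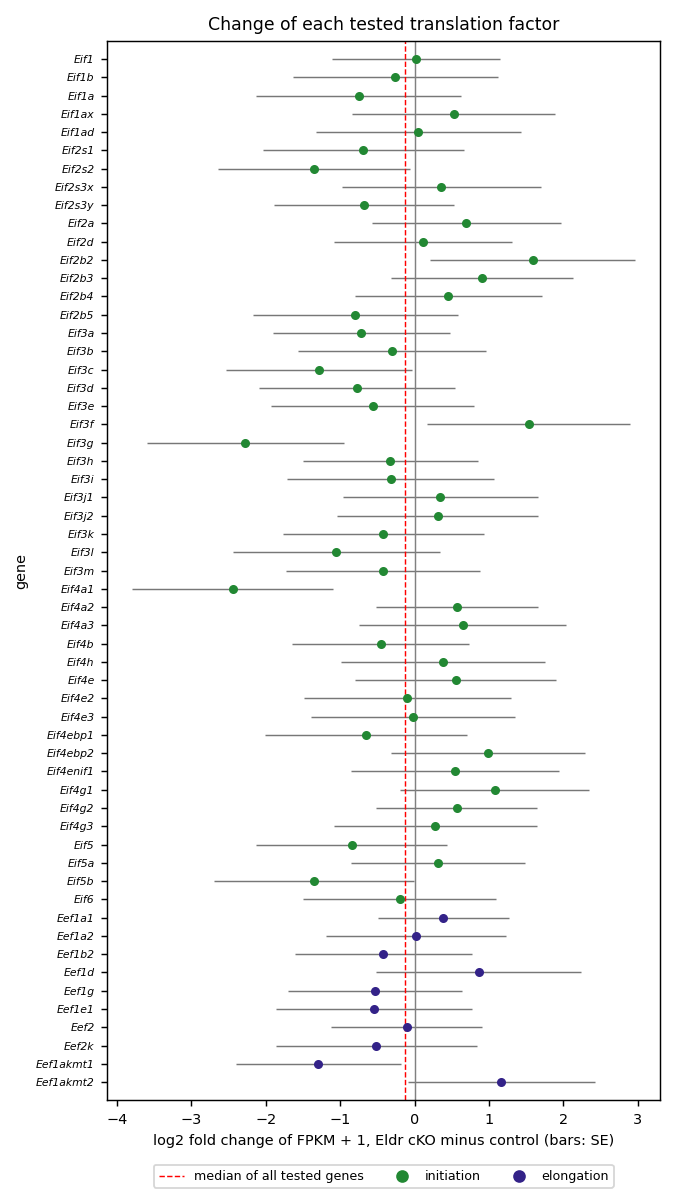
Log2 fold change of FPKM + 1, Eldr cKO minus control (horizontal axis), for the 57 tested translation factor genes, with bars of 1 SE from limma. Points lie on both sides of 0 and of the dashed median of all tested genes (-0.13), and none passed the adjusted threshold.

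Initiation and elongation were compared by their summed levels within each library. The 48 initiation genes summed to 711, 850 and 1591 FPKM in control 1 to 3 and to 1105, 833 and 942 FPKM in Eldr cKO 1 to 3. The 11 elongation genes summed to 729, 704 and 1175 FPKM in controls and to 1188, 822 and 817 FPKM among Eldr cKO libraries. By these values, which are per union exon length, both sums were of like size. The ratio of elongation to initiation was 1.03, 0.828 and 0.738 in controls and 1.07, 0.987 and 0.867 among Eldr cKO libraries. Control 1 lay within the Eldr cKO range, and so the groups overlapped.

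Elongation genes made up 46.1% ± 4.14 (SD, n = 3) of the members' summed FPKM in control and 49.3% ± 2.70 (SD, n = 3) in Eldr cKO. The difference of 3.17 percentage points was smaller than the SD between control libraries. Per length of the coding transcript, the elongation share was lower, at 41.3%, 36.5% and 34.2% for control 1 to 3 and 45.3%, 37.1% and 34.9% for Eldr cKO 1 to 3, and the difference was 1.77 points. As deposited and without Eef1a1, the difference was -0.82 points. With the enzymes left out of elongation but the regulators kept in initiation, the medians differed more between the classes than the sums. In controls, the median initiation gene was at 8.81, 5.96 and 15.6 FPKM. The median core elongation factor (7 genes, leaving out the enzymes and counting Eef1e1 by its name) was at 70.5, 35.6 and 78.8 FPKM there. In Eldr cKO, the medians were 11.9, 4.41 and 9.62 FPKM for initiation and 105, 34.0 and 17.1 FPKM for core elongation. The core elongation median was the higher in each of the 6 libraries. Between genotypes, 22 of 47 tested initiation genes and 4 of 10 tested elongation genes had a log2 fold change above 0, with medians of -0.10 and -0.26.

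**Figure D4:**
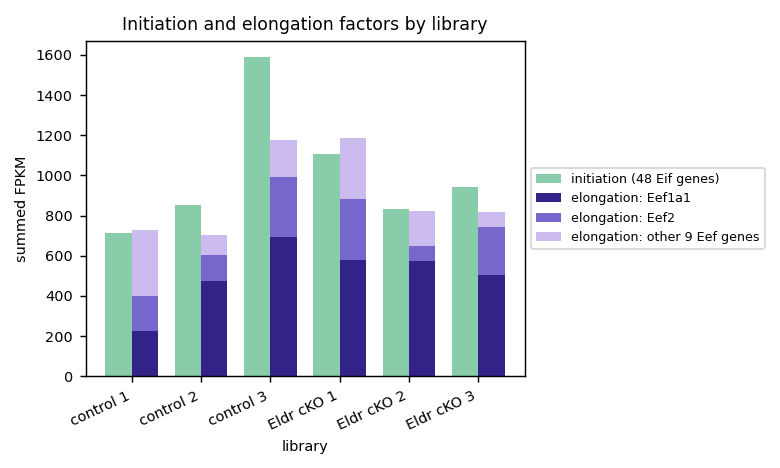
Summed FPKM (vertical axis) of the 48 initiation genes and of the 11 elongation genes, the latter split into Eef1a1, Eef2 and the other 9, in each library (horizontal axis). Control 3 has the highest initiation sum (1591 FPKM), and both sums overlap between the groups.

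Eef1a1 (ENSMUSG00000037742.14, GRCm38 chromosome 9, 78478449 to 78489151, minus strand) and the muscle isoform Eef1a2 (ENSMUSG00000016349.10, chromosome 2, 181147653 to 181157014, minus strand) varied between libraries more than between genotypes. Eef1a1 was at 227, 474 and 696 FPKM in control 1 to 3 and at 578, 576 and 504 FPKM in Eldr cKO 1 to 3. As deposited, the Eldr cKO libraries lay close together inside the control range, and control 1 was the lowest. With each library scaled to a common sum outside mitochondrial genome and Gm genes, Eef1a1 was at 184, 765 and 569 FPKM for control 1 to 3 and at 397, 863 and 627 FPKM for Eldr cKO 1 to 3. On that scale Eldr cKO 2 was above each control, and control 1 was again the lowest. Eef1a2 was at 188, 15.2 and 18.8 FPKM in controls and at 105, 31.7 and 17.1 FPKM among Eldr cKO libraries. Control 1 and Eldr cKO 1 were high and the other 4 libraries low, in both genotypes. The log2 fold change was 0.39 (SE 0.88, limma adjusted p = 1.00) for Eef1a1 and 0.02 (SE 1.21, limma adjusted p = 1.00) for Eef1a2.

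The balance of the isoforms differed widely within the control group. Eef1a1 was 1.21, 31.2 and 37.0 times Eef1a2 in control 1 to 3, and 5.49, 18.1 and 29.5 times in Eldr cKO 1 to 3. Eef1a2 thus made up 45.3%, 3.10% and 2.63% of the eEF1A transcript in controls and 15.4%, 5.22% and 3.28% in Eldr cKO. The sampling behind these shares was uneven, as Eef1a2 stood on 181, 2.50 and 5.07 fragment equivalents in controls and on 41.9, 3.45 and 1.99 among Eldr cKO libraries. Eef1a1 stood on 261, 93.4 and 225 in controls and on 275, 74.9 and 70.1 among Eldr cKO libraries. The mean log2 ratio of Eef1a1 to Eef1a2 was 3.43 ± 2.74 (SD, n = 3) in control and 3.80 ± 1.21 (SD, n = 3) in Eldr cKO. The difference of 0.37 gave an exact two-sided permutation p of 1.00, where 3 against 3 libraries allow no p below 0.10. Control 1 decided its sign, as it was -1.21 without control 1. It was also -0.13 without Eldr cKO 3.

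Heart muscle markers and Eef1a2 were both highest in control 1 and Eldr cKO 1, but their orders differed among the remaining libraries. The 13 markers summed to 9498, 2405 and 1017 FPKM in control 1 to 3 and to 8720, 2008 and 2356 FPKM in Eldr cKO 1 to 3. Of the remaining libraries, Eldr cKO 2 had the most Eef1a2 (31.7 FPKM) but a lower marker sum than control 2 and Eldr cKO 3. All 13 were above 0 in control 1 and Eldr cKO 1, the libraries with the most Eef1a2, and 10 to 12 in the others. Myh6, a myosin heavy chain of the heart, was at 2920, 527 and 195 FPKM in controls and at 1758, 293 and 302 FPKM among Eldr cKO libraries. Myl2, the ventricular regulatory light chain, was at 1612, 468 and 112 FPKM in controls and at 1181, 327 and 265 FPKM among Eldr cKO libraries. Control 1 and Eldr cKO 1 were the 2 highest libraries for 13 of 13 markers. Of these, 7 were highest in control 1, as Eef1a2 was, and 6, among them Actc1 and Nppa, in Eldr cKO 1. Markers of neurons, which also use Eef1a2, summed to 3.53, 20.5 and 54.96 FPKM in controls and to 19.5, 2.80 and 3.54 FPKM among Eldr cKO libraries. Their sum was highest in control 3. It was low both in control 1, where Eef1a2 was highest, and in Eldr cKO 2 and Eldr cKO 3, where Eef1a2 was low. The sum in Eldr cKO 1 came from Tubb3 alone. Control 1 and Eldr cKO 1 were also the deepest libraries. The part of heart RNA and of depth in the Eef1a2 levels was not tested.

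**Figure D5:**
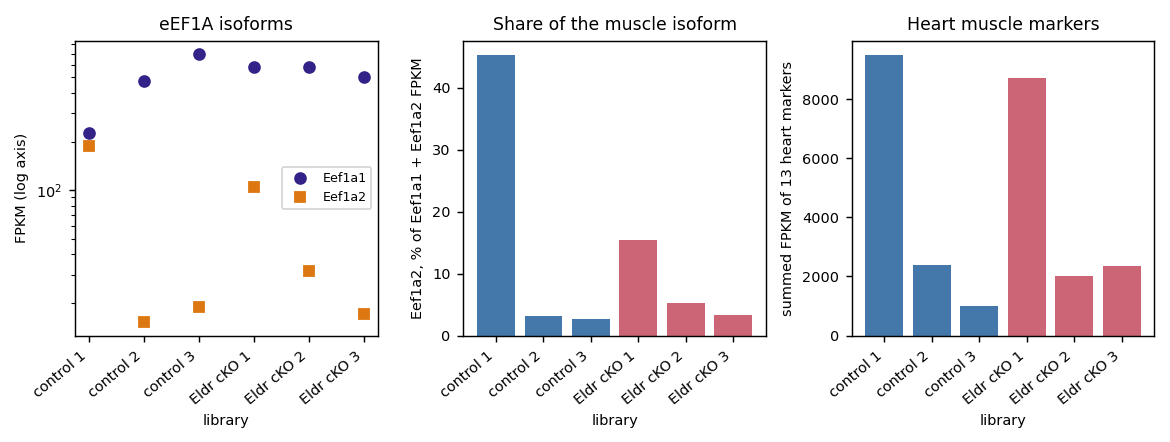
Left, FPKM of Eef1a1 (circles) and Eef1a2 (squares) on a log axis; middle, Eef1a2 as a percentage of both; right, summed FPKM of 13 heart muscle markers, in each library (control blue, Eldr cKO red). Eef1a2 reaches 45.3% of eEF1A in control 1 and 15.4% in Eldr cKO 1, the libraries with the highest heart marker sums (9498 and 8720 FPKM).

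The remaining core elongation factors showed no difference that passed the test. Eef2, the translocase, was at 173, 127 and 296 FPKM in control 1 to 3 and at 307, 70.8 and 239 FPKM in Eldr cKO 1 to 3. Its log2 fold change was -0.11 (SE 1.01, limma adjusted p = 1.00), and both its highest and its lowest library were Eldr cKO. Eef1g, the structural gamma subunit of eEF1B, was at 70.5, 47.8 and 78.8 FPKM in controls and at 116, 101 and 6.85 FPKM among Eldr cKO libraries. The last value stood on 0.993 fragment equivalents, and the log2 fold change turned from -0.53 to 0.74 without Eldr cKO 3. Eef1b2, the exchange subunit that reloads eEF1A, was at 41.5, 35.6 and 79.1 FPKM in controls and at 55.8, 34.0 and 25.3 FPKM among Eldr cKO libraries, with control 3 the highest. Eef1d, the other exchange subunit, was low in both groups, at 7.07, 1.59 and 2.10 FPKM in controls and 19.96, 6.50 and 1.48 FPKM among Eldr cKO libraries. Eef1e1, which belongs to the multi-synthetase complex despite its name, was listed at 0 in control 2, Eldr cKO 2 and Eldr cKO 3 and did not exceed 5.02 FPKM elsewhere.

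The 4 enzymes that act on elongation factors were near the limit of detection. Eef2k, the kinase that stalls elongation by phosphorylating eEF2, was at 2.40, 1.70 and 1.58 FPKM in control 1 to 3, at 1.45 and 2.34 FPKM in Eldr cKO 1 and 2, and listed at 0 in Eldr cKO 3. Of the lysine methyltransferases of eEF1A, Eef1akmt1 was above 0 in control 1 alone, at 13.7 FPKM, and Eef1akmt3 in control 2 and 3 alone, at 1.01 and 0.606 FPKM. Eef1akmt2 was at 1.23 FPKM in control 1, at 24.2 FPKM in Eldr cKO 3 and listed at 0 in the others. Eef1akmt1, Eef1akmt3 and Eif2b1 were the 3 members listed at 0 in each Eldr cKO library, and no member was listed at 0 in each control library. Eef1akmt1 and Eif2b1 were above 0 in control 1, the deepest library. Eef1akmt3 was listed at 0 there and stood on 0.217 and 0.213 fragment equivalents in control 2 and 3. Each of these 3 genes was also listed at 0 in at least 1 control.

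Among initiation factors, eIF3, the scaffold of the small subunit complex, was measured through 14 subunit genes. Their summed FPKM was 228, 197 and 635 in control 1 to 3 and 356, 146 and 231 in Eldr cKO 1 to 3. The median subunit was at 10.3, 11.9 and 26.9 FPKM in controls and at 19.4, 6.91 and 12.9 FPKM among Eldr cKO libraries. Control 3 stood above the other libraries on both measures, and it held the highest value of 6 of the 14 subunits. Log2 fold changes were below 0 for 11 of the 14 and above 0 for 3 (Eif3f, Eif3j1 and Eif3j2), with a median of -0.42 beside -0.13 over all tested genes, and none passed the test. The split was 11 to 3 under quantile normalization and under scaling to the genes outside the mitochondrial genome and Gm genes too. It was 8 to 6 without control 3, with a median of -0.10, and also 8 to 6 without Eldr cKO 2, with a median of -0.17. The median was -0.83 without control 2 and -0.67 without Eldr cKO 1. Over all tested genes the median moved too, to -0.44 without control 2 and -0.76 without Eldr cKO 1. It was 0.04 over all tested genes without control 3 and 0.13 without Eldr cKO 2.

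The single eIF3 subunits varied widely between libraries. Eif3a, the largest scaffold subunit, was at 40.8, 25.8 and 159 FPKM in control 1 to 3 and at 47.7, 30.5 and 25.3 FPKM in Eldr cKO 1 to 3. Control 3 was the highest library, and the log2 fold change of -0.72 (SE 1.19, limma adjusted p = 1.00) was 0.04 without that library. Eif3g, an RNA-binding subunit, was at 10.9, 12.7 and 117 FPKM in controls and at 15.8, 0 and 9.03 FPKM among Eldr cKO libraries. The log2 fold change was -2.28 (SE 1.32, limma adjusted p = 1.00), and the Eldr cKO 3 value stood on 1.00 fragment equivalent. It was -1.04 with Eldr cKO 2 left out, -1.21 with control 3 left out and -3.08 with Eldr cKO 1 left out. Eif3h was at 45.8, 47.0 and 76.7 FPKM in controls and 77.9, 23.7 and 44.4 FPKM among Eldr cKO libraries, with the groups interleaved. Eif3b was at 26.1, 11.1 and 49.8 FPKM in controls and 30.3, 20.96 and 11.8 FPKM among Eldr cKO libraries, and Eif3c at 27.8, 24.4 and 91.2 FPKM and 60.8, 5.48 and 10.7 FPKM. Eif3m was the most even subunit named here, between 13.2 and 23.2 FPKM in controls and between 9.88 and 14.8 FPKM among Eldr cKO libraries. The paralogs Eif3j1 and Eif3j2, whose sequences overlap, were at 6.26 to 28.6 FPKM and 5.01 to 17.2 FPKM over the 6 libraries, and Eif3e at 1.05 to 25.5 FPKM.

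Delivery of the initiator tRNA by eIF2 and its recharging by eIF2B stood on few fragments. The 4 eIF2 genes summed to 51.1, 21.6 and 180 FPKM in control 1 to 3 and to 45.7, 12.6 and 37.6 FPKM in Eldr cKO 1 to 3, with control 3 again the highest. Eif2s1, the alpha subunit that stress kinases phosphorylate, was at 7.52, 0.878 and 64.6 FPKM in controls and at 17.2, 0.479 and 8.37 FPKM among Eldr cKO libraries. Eif2s2, the beta subunit, was at 12.7, 20.7 and 81.6 FPKM in controls and at 14.9, 4.24 and 16.5 FPKM among Eldr cKO libraries. Both were highest in control 3 and lowest in Eldr cKO 2, the library with the lowest estimated depth. The gamma subunit has an X-linked and a Y-linked gene in mice, of which Eif2s3x was above 0 in 5 libraries, up to 34.1 FPKM, and Eif2s3y in control 1 and Eldr cKO 1 alone, at 11.4 and 2.01 FPKM. The 5 eIF2B genes, the exchange factor that reloads eIF2 with GTP, summed to 16.7, 3.95 and 3.74 FPKM in controls and to 28.1, 10.5 and 2.73 FPKM among Eldr cKO libraries. Eif2a, which can deliver initiator tRNA outside eIF2, was at 7.06, 24.98 and 23.1 FPKM in controls and at 11.8, 36.9 and 43.0 FPKM among Eldr cKO libraries, with a log2 fold change of 0.69 (SE 1.27, limma adjusted p = 1.00), and of 0.15 to 1.25 with a library left out.

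The helicase eIF4A gave the smallest unadjusted p of the members. Eif4a1, the ubiquitous form, was at 11.7, 8.45 and 75.0 FPKM in control 1 to 3 and at 10.5, 0 and 3.93 FPKM in Eldr cKO 1 to 3. These stood on 23.4, 2.89 and 42.1 fragment equivalents in controls and on 8.66, 0 and 0.950 among Eldr cKO libraries. Its log2 fold change was -2.45 (SE 1.35, limma adjusted p = 1.00), and Eldr cKO 1 lay within the control range. Eif4a2, its paralog, was at 52.4, 112 and 89.8 FPKM in controls and at 50.02, 229 and 151 FPKM among Eldr cKO libraries. It was above Eif4a1 in each library, but with 1.20 times as much in control 3 against 4.47 in control 1, 13.3 in control 2, 4.78 in Eldr cKO 1 and 38.5 in Eldr cKO 3. The log2 fold change of Eif4a2 was 0.57 (SE 1.09, limma adjusted p = 1.00), and 0.11 to 1.19 with a library left out. Eif4b, which stimulates the helicase, was at 48.9, 20.5 and 134 FPKM in controls and at 81.5, 9.98 and 61.2 FPKM among Eldr cKO libraries, with control 3 the highest.

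A property of the gene structure bears on how these levels are read. On their own strand, 8 of the 59 members (13.6%) hold an annotated small nucleolar RNA gene, against 214 of 12536 rows of the table found in the annotation (1.71%). These are Eif3a, Eif4a1, Eif4a2, Eif4g1, Eif4g2, Eif5, Eef1b2 and Eef2. In Eif4a1, Eif4a2, Eif4g1, Eif4g2 and Eif5, at least 1 of them lies over an annotated exon of some transcript, and for Eif4a2 5 of 5 do. How reads from such RNAs were counted is not stated in the sources used here. Gene levels were divided by the union of all annotated exons. For Eif4a2 this is 4.35 times the length of its coding transcript, against 2.44 times for Eif4a1, 1.39 for Eef1a1 and 1.00 for Eef1a2. The Eif4a2 to Eif4a1 ratios above are not corrected for this. Per coding transcript, Eef1a1 was 1.68, 43.4 and 51.4 times Eef1a2 in control 1 to 3 and 7.63, 25.2 and 41.0 times in Eldr cKO 1 to 3. This multiplies the ratio by the same factor in each library.

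The eIF4G scaffolds, which tie the cap-binding protein to the helicase and to eIF3, had 3 genes, and each was above 0 in each library. Eif4g2, also known as DAP5, which works without the cap-binding protein, was at 55.7, 213 and 54.1 FPKM in control 1 to 3 and at 92.4, 163 and 141 FPKM in Eldr cKO 1 to 3. Control 2 was the highest library, and the log2 fold change was 0.56 (SE 1.08, limma adjusted p = 1.00), and 0.23 to 1.21 with a library left out. Eif4g1, the main scaffold, was at 39.2, 5.10 and 13.9 FPKM in controls and at 57.7, 25.2 and 21.3 FPKM among Eldr cKO libraries. Its log2 fold change was 1.08 (SE 1.27, limma adjusted p = 1.00), with control 1 above both Eldr cKO 2 and Eldr cKO 3. It was 0.41 without control 2 and 1.77 without control 1. Eif4g3 was lower, at 5.37, 2.03 and 11.1 FPKM in controls and 12.05, 4.30 and 5.02 FPKM among Eldr cKO libraries.

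Cap binding itself was thinly sampled. Eif4e, the cap-binding protein, was at 6.18, 16.2 and 2.32 FPKM in control 1 to 3 and at 6.49, 3.70 and 35.8 FPKM in Eldr cKO 1 to 3. The highest library was Eldr cKO 3, one of the shallowest, and the log2 fold change of 0.55 was -0.32 without it. Among the proteins that hold eIF4E back, Eif4ebp1, a target of mTORC1, was at 2.25, 22.2 and 11.5 FPKM in controls and at 24.2, 8.67 and 0 FPKM among Eldr cKO libraries. The other genes around eIF4E (Eif4e2, Eif4e3, Eif4ebp2 and Eif4enif1) were each listed at 0 in at least 1 library and did not exceed 24.9 FPKM.

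Start-site selection and the last steps of initiation involve small and late factors. Eif1, which guards the choice of start codon, was at 56.4, 100.02 and 68.3 FPKM in control 1 to 3 and at 107, 46.3 and 80.9 FPKM in Eldr cKO 1 to 3. Its groups interleaved, with a log2 fold change of 0.02 (SE 1.13, limma adjusted p = 1.00). Eif5, which triggers GTP hydrolysis by eIF2, was at 8.30, 32.9 and 49.9 FPKM in controls and at 7.96, 10.9 and 25.2 FPKM among Eldr cKO libraries. Eif5a, named as an initiation factor but known to aid elongation at difficult codons through its hypusine residue, was at 17.5, 50.9 and 118 FPKM in controls and at 104, 59.1 and 33.9 FPKM among Eldr cKO libraries. With Eif5a counted as elongation, the share of elongation differed by 3.59 percentage points in place of 3.17. Eif5b, which joins the subunits, reached 21.9 FPKM in control 3 and was listed at 0 in Eldr cKO 3. Eif6, which keeps the large subunit apart until it is mature, was above 0 in 3 libraries, at no more than 6.48 FPKM.

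Across roles, the libraries differed in which members they held at the highest level. Control 3 held the highest value for 19 of the 59 members, Eldr cKO 1 for 16, Eldr cKO 3 for 10, control 1 for 6, Eldr cKO 2 for 5 and control 2 for 3. With each library scaled to a common sum outside mitochondrial genome and Gm genes, control 3 still held the most, 15, and Eldr cKO 3 held 13, Eldr cKO 2 11, control 2 9, Eldr cKO 1 6 and control 1 5.

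Other genes of the translation pathway likewise gave no call between genotypes. Of the cytosolic aminoacyl-tRNA synthetases, which charge the tRNAs that eEF1A carries, 22 were tested and 9 had a log2 fold change above 0 and 13 below 0, with 0 past the threshold. Nars was at 28.8, 0 and 142 FPKM in control 1 to 3 and at 61.5, 7.31 and 6.63 FPKM in Eldr cKO 1 to 3. Of 11 genes for poly(A)-binding proteins and modulators of initiation, 5 were above and 6 below 0. For 1 the unadjusted limma p was under 0.05, against 1.50% of all tested genes (135 of 9007). This was Denr, a factor of translation reinitiation. It was at 11.3, 11.9 and 25.6 FPKM in controls and at 9.92, 0 and 0 FPKM among Eldr cKO libraries. Its groups did not overlap, as for 3.94% of all tested genes (355 of 9007), and it did not pass the adjusted threshold. Pabpc1, the poly(A)-binding protein that contacts eIF4G, was at 49.1, 321 and 454 FPKM in controls and at 320, 180 and 288 FPKM among Eldr cKO libraries, with control 1 the lowest, as for Eef1a1. Of 4 tested release and recycling factors, 1 was above and 3 below 0, and Etf1, which reads stop codons, was at 34.9, 35.5 and 77.2 FPKM in controls and at 62.8, 50.7 and 14.7 FPKM among Eldr cKO libraries.

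Of 10 tested genes of the eIF2 kinases and the integrated stress response, 6 were above and 4 below 0. Atf4, the transcription factor translated when eIF2 is phosphorylated, was at 16.7, 22.8 and 43.9 FPKM in control 1 to 3 and at 52.3, 23.9 and 0 FPKM in Eldr cKO 1 to 3. Trib3, a target of that pathway, reached 113 FPKM in control 3, was at 7.36 in Eldr cKO 1 and was listed at 0 in the others. Of 9 mTORC1 pathway genes, 3 were above and 6 below 0. Their median log2 fold change was -1.38, beside -0.13 over all tested genes. The other lists had medians of -0.85 (release and recycling), -0.35 (mitochondrial), -0.32 (synthetases), -0.09 (poly(A) binding and modulators) and 0.12 (stress response). In Eldr cKO 2 and Eldr cKO 3, the shallowest libraries, Akt1s1, Tsc2, Mtor, Mlst8 and Deptor were each listed at 0. Rps6kb1, the S6 kinase, was the 1 gene of 9 with an unadjusted p under 0.05, against 1.50% of all tested genes, did not pass the adjusted threshold of limma, and was at 4.18, 18.5 and 21.4 FPKM in controls and at 5.97, 0 and 0 FPKM among Eldr cKO libraries. Of 6 mitochondrial translation factors, 2 were above and 4 below 0, and Tufm, the mitochondrial counterpart of eEF1A, was at 21.05, 0 and 16.3 FPKM in controls and at 32.6, 13.1 and 0 FPKM among Eldr cKO libraries. Of the hypusine enzymes that modify Eif5a, Dohh was the single one tested, with a log2 fold change of -0.08. Another row with the symbol Dohh had a mean of 0.622 FPKM and was left out by the filter. That row was at 0.529, 2.31 and 0.888 FPKM in controls and listed at 0 in each Eldr cKO library.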

How the data were processed

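RNA was enriched by poly(A) selection or ribosomal RNA removal and sequenced from a stranded kit, per the labels' protocols. The tools named in the submitters' processing notes are cutadapt, StringTie and HISAT2 2.0.5, and the build named there is the human hg19, although the gene IDs are mouse. The authors deposited 1 FPKM value per gene and library, and group columns that are means of log2(FPKM + 1). The fold in the authors' deposited table is the antilog of their log2 difference, and the p-value and q-value deposited beside it come from the authors' own comparison and are not reported here. For 9518 of 10093 rows with several transcripts, FPKM times the union exon length in GENCODE M21 was whole at the sixth decimal (tolerance 0.02). Depth and fragment equivalents were computed from that length, which was shown for 49 of 59 members and assumed for the other 10. All 59 IDs were in GENCODE M21 (GRCm38), 52 of them within 1 bp of its position.

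For genes whose mean was at least 1 FPKM, limma 3.58.1 (R 4.3.3) was run with a variance trend, genotype as the single factor and pseudocount 1, two-sided. Its prior degrees of freedom came out infinite, so each SE came from the trend over genes. The script was also run on simulated data without the shifts in mitochondrial genome and Gm shares seen here. The recovery rates of that run are not given, so it does not show what the test could detect. A fold change is on the log2(FPKM + 1) scale and understates changes of low genes. The members and lists were chosen with earlier results of these data known. Named were members with a mean of 20 FPKM or more, those above 0 in all 6 libraries, those at 0 throughout a group, those with an unadjusted p under 0.05 or groups that do not overlap, the core elongation factors, and up to 3 genes of each related list. The rule did not name Denr, Eif4a1 and some other members given with values, which were picked after these were seen. Sequences were read from the GENCODE M21 transcripts and placed on GRCm38 by its annotation. Figures were drawn with matplotlib 3.10.9 in Python 3.11.15.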

Additional observations from a re-analysis of the deposited data

How the results depend on the processing

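The alternatives tried were quantile normalization, a pseudocount of 0.1 or 0.5, a minimum of 5 FPKM or none, scaling outside mitochondrial genome and Gm genes, robust variance estimation, each library left out, and lengths of the coding transcript, the last chosen after seeing the data. The number of members past the threshold was 0 under each limma alternative. The number of all tested genes past it ranged from 0 to 4 with a library left out (1 without control 1, 4 without Eldr cKO 1, otherwise 0). Without Eldr cKO 1, the unadjusted limma p was under 0.05 for 2 of 56 members, Eif4a1 and Eif3g (limma adjusted p = 0.80 for both). In that fit it was under 0.05 for 377 of all 8267 tested genes. The median log2 fold change of all tested genes was 0.01 under quantile normalization, -0.76 without Eldr cKO 1 and -0.44 without control 2, in place of -0.13, and that of the members ranged from -0.55 to 0.32 with a library left out. The elongation share differed by -0.82 points without Eef1a1, and by 1.34 to 5.42 points with a library left out. The log2 isoform ratio ranged from -1.21 to 1.22 with a library left out. Of 30 members followed through the alternatives, 16 turned direction with a library left out. Their log2 fold changes ranged from -0.059 to 0.75 for Eef1a1, -0.69 to 1.15 for Eef1a2, -1.21 to 0.74 for Eef1g and -0.52 to 0.53 for Eef2. For Eif1 the range was -0.24 to 0.35, for Eif2s1 -1.90 to 0.66, for Eif3a -1.25 to 0.035, for Eif3b -0.84 to 0.19, for Eif3e -1.57 to 0.28 and for Eif3h -0.74 to 0.10. For Eif3j1 it was -0.051 to 0.95, for Eif3j2 -0.12 to 0.68, for Eif4b -1.10 to 0.45, for Eif4e -0.32 to 1.16, for Eif4g3 -0.23 to 0.77 and for Eif5a -0.38 to 0.96. Under another setting 1 member turned, Eif1, at -0.032 under quantile normalization. With a library left out, Eif4a1 ranged from -3.24 to -1.48, Eif3g from -3.08 to -1.04 and Eif4g1 from 0.41 to 1.77.

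The replicate number as a block gave 0 calls, 223 genes at an unadjusted p under 0.05 against 135 without it, and an isoform ratio difference of 0.37. Deviations from the group means correlated at 0.28, 0.15 and 0.10 between same-numbered libraries, and each library correlated best with its own number. This is a hint from the data, since the labels state no pairing. Control 1 and Eldr cKO 1, with the largest of these correlations, were also the deepest libraries and those with the highest heart marker sums. The part of depth and of heart RNA in these correlations was not tested.

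Depth limits each value here: members listed at 0 in a shallow library, or standing on a few fragments, cannot be told apart from members at a low level.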
